A study of Mus musculus with 2 samples.

Results

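The immediate early response genes Fos, Fosb, Jun, Junb, Jund, Egr1, Ier2, Dusp1, Atf3 and Zfp36 were examined in single-cell transcriptomes of fetal liver LSK cells (lineage-negative, SCA1-positive, cKIT-positive progenitors) from IκBα WT and IκBα KO embryos. These 10 of the 32285 genes in the count tables were chosen from general knowledge of the response and, for Fosb, from its higher level in KO lymphoid-primed cells of these same libraries, so that the KO against WT values below are a description and were not tested. The embryos were of the CD1 strain at E14.5, and KO animals carried the tm1Bal allele of Nfkbia, the gene of IκBα, in all cells. The WT library pooled 2 embryos and the KO library 3 according to the labels, and per the methods they came from crosses of heterozygous parents. Livers were pressed through a strainer in serum-containing medium, depleted of lineage-positive cells and sorted, and both libraries passed through these steps. With 1 library per genotype there were no replicates, and genotype, embryo pool, handling before capture and library cannot be told apart.

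Immediate early genes are transcribed within minutes of a stimulus, without new protein synthesis, because the factors that drive them (SRF with its ternary complex partners, CREB and others) are already bound or are activated by MAP kinases. FOS and FOSB proteins pair with JUN, JUNB or JUND to form the AP-1 transcription factor, EGR1 is a zinc finger activator, and ATF3 is a bZIP factor that binds related sites. DUSP1 dephosphorylates MAP kinases and ZFP36 (tristetraprolin) promotes decay of AU-rich mRNAs, so that both limit the response. The same genes are known to be induced when tissues are taken apart into single cells, and some of them are also targets of NF-κB, which IκBα holds inactive in the cytoplasm.

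The start regions of Fos, Fosb and Dusp1 are shown because these genes had the most cell classes in which the KO value lay past the fold used below. Each window runs from 250 bases before to 50 bases after the start in RefSeq (GRCm38.p6). Capitals mark matches to the CRE (TGACGTCA), the CRE core (TGACG on either strand, which is also contained in the CRE), the TATA box (TATAAA) and an NF-κB consensus site; an AP-1 site (TGANTCA), a CArG box and an EGR site (GCGTGGGCG) were searched as well, on both strands. In RefSeq, Fos spans chr12:85473890-85477274 (plus strand), Fosb chr7:19302696-19310118 (minus strand) and Dusp1 chr17:26505591-26508472 (minus strand), and the windows lie at chr12:85473640-85473939, chr7:19309996-19310295 and chr17:26508423-26508722. A gene can have several annotated starts and each window holds 1 of them: the GENCODE model of Dusp1 has a further transcript that extends the gene to 26562128, so that the Dusp1 window lies well inside the GENCODE span.
Fos: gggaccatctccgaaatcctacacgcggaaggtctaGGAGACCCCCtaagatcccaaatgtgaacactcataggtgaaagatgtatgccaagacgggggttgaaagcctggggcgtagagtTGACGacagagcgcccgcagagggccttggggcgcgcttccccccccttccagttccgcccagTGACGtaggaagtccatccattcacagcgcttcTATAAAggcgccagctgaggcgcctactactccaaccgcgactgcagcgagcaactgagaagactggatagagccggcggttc
Fosb: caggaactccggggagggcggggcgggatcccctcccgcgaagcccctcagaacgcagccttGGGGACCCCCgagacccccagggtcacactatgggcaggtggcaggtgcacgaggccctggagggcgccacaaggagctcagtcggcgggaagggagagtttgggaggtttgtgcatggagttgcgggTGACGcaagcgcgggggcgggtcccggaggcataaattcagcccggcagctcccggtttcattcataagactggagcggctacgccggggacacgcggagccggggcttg
Dusp1: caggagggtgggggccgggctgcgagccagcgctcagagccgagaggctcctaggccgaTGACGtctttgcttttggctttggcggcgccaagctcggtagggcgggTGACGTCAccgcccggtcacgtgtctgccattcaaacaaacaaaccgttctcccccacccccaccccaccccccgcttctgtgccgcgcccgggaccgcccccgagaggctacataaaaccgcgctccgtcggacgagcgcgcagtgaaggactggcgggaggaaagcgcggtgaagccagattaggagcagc
Fos held the CRE core at -129 and -66, counted from the start, an NF-κB match at -214 and a TATA box at -33. Fosb held the CRE core at -60 and an NF-κB match at -188. Dusp1 held a full CRE at -143 and a further core at -191. Windows were found for 8 of the 10 genes (not for Egr1 and Ier2), and 5 of the 8 held the CRE core against 20.8% of all 32851 mouse windows of this length. An NF-κB match was found in 2 of the 8 (4.51% of all windows), a CArG box in 1, Zfp36 (1.63%), and a full CRE in 1, Dusp1 (1.79%). The letters of the TATA box were found in 2 (13.6%), in Fos before the start and in Junb from position 1, the first base of the transcript. The AP-1 site (7.81%) and the EGR site (0.612%) were found in 0 of the 8. A match is a run of letters and not evidence of binding in these cells. Sequence more than 250 bases before the start was not searched, so a motif not found here can lie outside the window.

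The WT library held 109122324 UMIs (unique molecular identifiers, 1 per captured RNA molecule) in 3840 cells and the KO library 100029143 UMIs in 4928 cells. Filters left 3458 WT cells (median depth 28065 UMIs) and 4417 KO cells (19560 UMIs). The median mitochondrial share was 2.13% in WT and 2.37% in KO. Nfkbia had 1478 UMIs in WT and 7 in KO, as the labels call for. Cells without Y-linked UMIs and with Xist were 95.9% of the WT and 69.4% of the KO library, cells with Y-linked UMIs and without Xist 0.116% and 17.4%, and 7 cell barcodes occurred in both libraries. Cells were gated by marker genes into 10 classes of at least 40 cells in each library, named here as LT-HSC-like (338 WT and 303 KO cells), lymphoid-primed-like (242 and 259), neutrophil-primed-like (162 and 212), monocyte/dendritic-like (107 and 109), erythroid-primed-like (1083 and 1511), megakaryocyte-like (47 and 123), mast/basophil-like (51 and 80), macrophage-like (58 and 101), hepatocyte-like (42 and 80) and endothelial-like (68 and 102). LT-HSCs are named in the sample titles and LSK cells in the cell type entries. By these gates 338 of 3458 WT and 303 of 4417 KO cells were LT-HSC-like, and 1233 WT and 1523 KO cells met no gate. The LT-HSC-like share thus depends on the gate limits. Clustering of the same cells gave clusters named LT-HSC with 348 and 206 WT cells and 325 and 236 KO cells. Levels are CPM (UMIs of a gene scaled to the UMI total of the class), which are not divided by transcript length in this 3′ assay, and all intervals are 95% intervals for counting error only, which are too narrow because cells vary more than counting does.

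Across all kept cells the 10 genes together took 381 CPM in WT and 404 CPM in KO, a log2 KO/WT ratio of 0.08 (0.06 to 0.10). Jun, Jund and Ier2 supplied 68.3% of these UMIs in WT and 64.4% in KO. The sum was lowest in erythroid-primed-like cells, with 188 CPM in WT against 203 in KO. It was highest in mast/basophil-like cells in WT (1053 CPM) and in endothelial-like cells in KO (1130 CPM), with monocyte/dendritic-like cells at 895 and 1057 CPM and LT-HSC-like cells at 651 and 692 CPM. Every member except Dusp1 and Atf3 had its lowest CPM in erythroid-primed-like cells in both libraries.

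**Figure D1:**
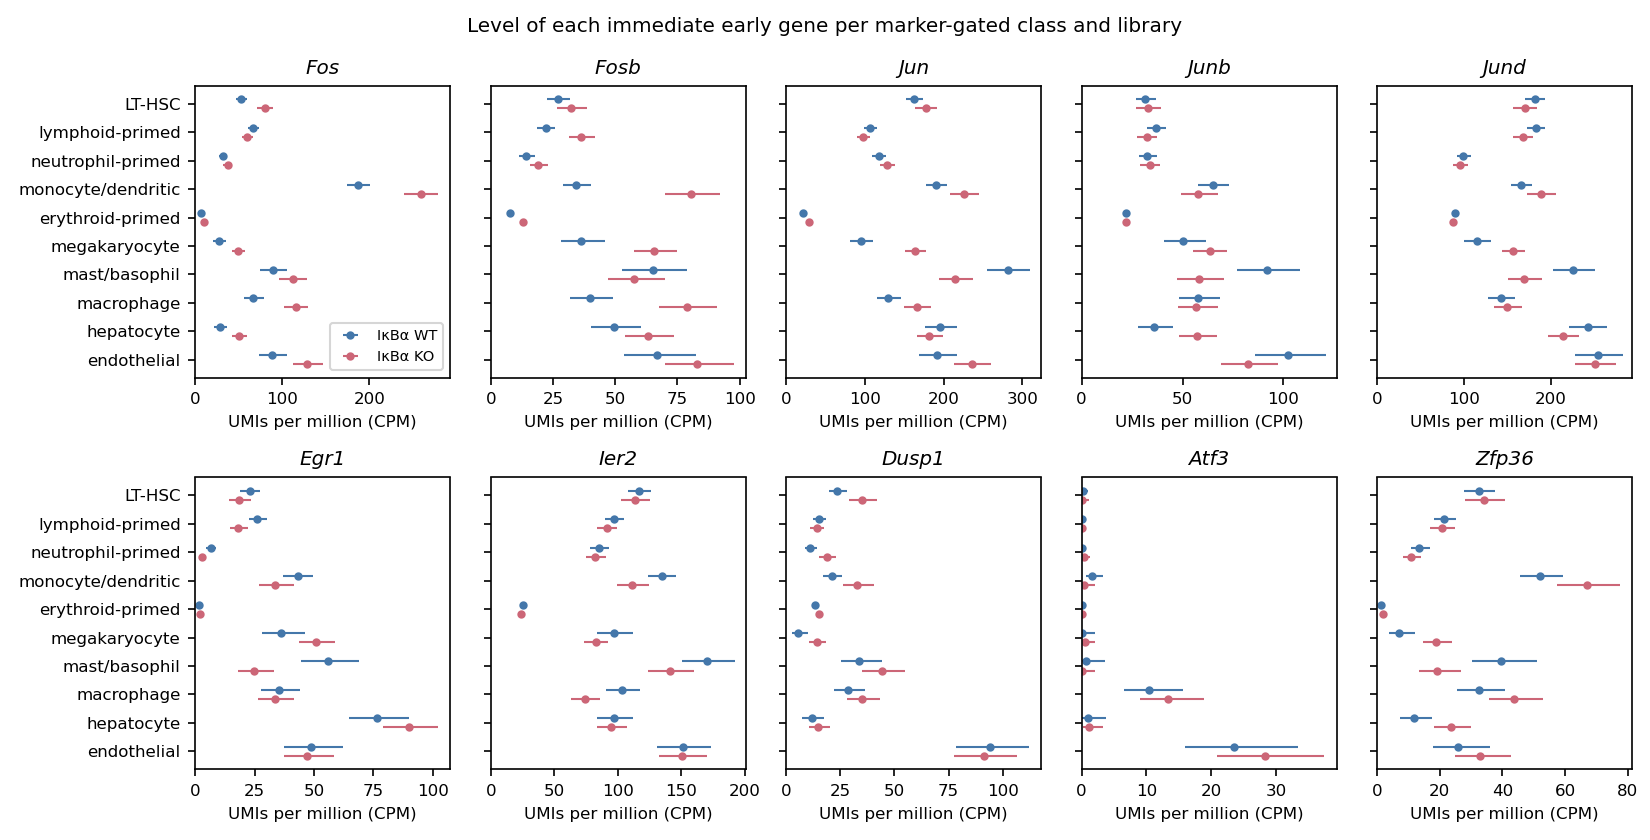
CPM (linear axis) of the 10 genes in the 10 gated classes, WT in blue and KO in red, with 95% Poisson intervals as bars. Each point is 1 library. Fos runs from 6.69 CPM in WT erythroid-primed-like cells to 187 CPM in WT monocyte/dendritic-like cells, a wider span than the distance between WT and KO in any class.

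Of the 100 combinations of gene and class, 83 had at least 100 UMIs over both libraries and 17 did not, among them all 10 of Atf3. The KO value was higher in 45 of the 83 and lower in 38. A log2 ratio of at least 0.5 in size is called past the fold. By this measure 17 combinations were higher in KO and 3 lower, and 11 of the 17 were of Fos or Fosb. Among the 11 was Fosb in lymphoid-primed-like cells, the value that helped to choose the list. Of all genes with at least 100 UMIs, 1.37% to 7.85% were higher past the fold, depending on the class, and 1.04% to 3.05% lower. The combinations nearest to the fold on the inside were Fos in erythroid-primed-like cells (0.53) and, on the lower side, Egr1 in lymphoid-primed-like cells (-0.53). Those nearest on the outside were Egr1 in megakaryocyte-like cells (0.48) and Ier2 in macrophage-like cells (-0.48).

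**Figure D2:**
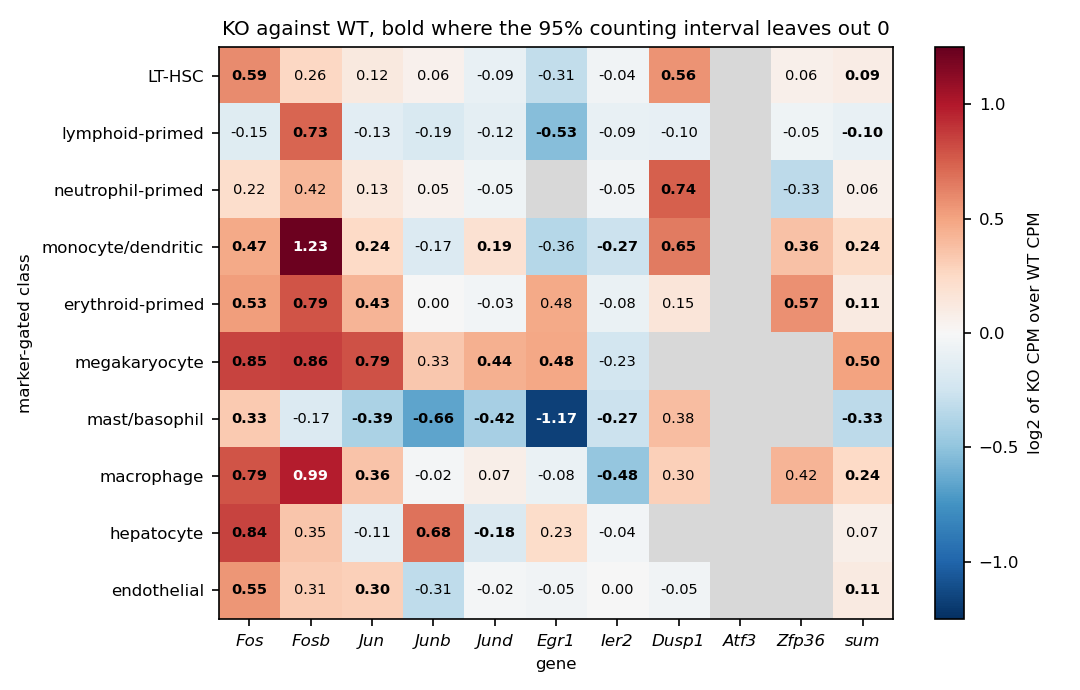
Log2 KO/WT of each gene and of the sum (columns) in each gated class (rows), red where KO was higher and blue where it was lower. Bold values have a 95% counting interval that leaves out 0, and grey cells had fewer than 100 UMIs. The columns of Fos and Fosb are red in 9 of 10 classes each, and the column of Ier2 is blue or near 0 throughout. The mast/basophil row holds the lowest ratios of Jun, Junb, Jund and Egr1 among those with enough UMIs.

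The Fos subunits of AP-1 were considered first. Fos (ENSMUSG00000021250), the induced partner of the JUN proteins, had 282 UMIs (53.0 CPM) in WT against 272 UMIs (79.7 CPM) in KO LT-HSC-like cells. Its log2 KO/WT ratio there was 0.59 (0.34 to 0.83). In monocyte/dendritic-like cells, its highest class in both libraries, Fos stood at 187 CPM in WT against 259 in KO (0.47, 0.32 to 0.62). Below that class the WT order was mast/basophil-like (89.0 CPM), endothelial-like (88.1 CPM), macrophage-like (66.8 CPM) and lymphoid-primed-like cells (66.4 CPM), whose neighbouring intervals overlapped. In lymphoid-primed-like cells Fos had 66.4 CPM in WT against 59.7 in KO (-0.15, -0.37 to 0.06), its only class with a lower KO value.

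Fos was past the fold in 6 of the 10 classes. Besides LT-HSC-like cells these were erythroid-primed-like cells with 6.69 CPM in WT and 9.63 CPM in KO (0.53, 0.29 to 0.77) and megakaryocyte-like cells with 27.1 and 48.8 CPM (0.85, 0.39 to 1.33). They also included macrophage-like cells with 66.8 and 115 CPM (0.79, 0.49 to 1.09). Hepatocyte-like cells had 28.1 and 50.4 CPM (0.84, 0.38 to 1.32), and endothelial-like cells had 88.1 and 129 CPM (0.55, 0.22 to 0.89). The call in LT-HSC-like cells was kept in 7 of 10 alternatives, with 0.39 as the lowest value (female cells only), and that in erythroid-primed-like cells in 6 of 10, with 0.23 as the lowest (mean over cells). The median of the 10 class ratios of Fos was 0.54, and the interval lay above 0 in 8 classes.

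Fosb (ENSMUSG00000003545), the second induced Fos protein and the member whose KO value in lymphoid-primed-like cells helped to choose the list, had 150 UMIs (22.0 CPM) in WT and 194 UMIs (36.4 CPM) in KO cells of that class. The ratio was 0.73 (0.41 to 1.04) and, as the value that helped to choose the gene, is given as a description. It went from 0.39, as a mean over cells, to 0.96 over 10 alternatives and stayed past the fold in 9 of them. Expression was carried by few cells. The tenth of lymphoid-primed-like cells (10%) with the most Fosb UMIs held 76.7% of them in WT and 62.4% in KO, and the highest cell had 15 UMIs in WT and 11 in KO.

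Outside that class, Fosb was also higher in KO in 8 of the other 9. In monocyte/dendritic-like cells it had 34.3 CPM in WT and 80.5 CPM in KO (1.23, 0.92 to 1.54), its largest ratio. Macrophage-like cells had 39.7 and 78.7 CPM (0.99, 0.61 to 1.37), megakaryocyte-like cells 36.3 and 65.7 CPM (0.86, 0.46 to 1.27) and erythroid-primed-like cells 7.58 and 13.1 CPM (0.79, 0.57 to 1.01). These 4 classes and the lymphoid-primed-like class were the 5 in which Fosb passed the fold. In LT-HSC-like cells the values were 26.9 CPM in WT and 32.2 CPM in KO (0.26, -0.11 to 0.63), and the interval also held 0 in neutrophil-primed-like cells (14.3 and 19.1 CPM), hepatocyte-like cells (49.6 and 63.2 CPM) and endothelial-like cells (66.8 and 83.0 CPM). Mast/basophil-like cells were the exception in direction, with 65.0 CPM in WT and 57.6 CPM in KO (-0.17, -0.59 to 0.24). Over all kept cells Fosb had 16.7 CPM in WT against 27.2 in KO (0.70, 0.62 to 0.79).

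Of the Jun subunits, Jun was higher in KO past the fold in 1 of 10 classes. Junb was higher in 1 and lower in 1 of 10, and Jund was past the fold in 0 of 10. Depending on the class, 1.37% to 7.85% of all genes with enough UMIs were higher and 1.04% to 3.05% lower. Jun (ENSMUSG00000052684, an intronless gene at chr4:95049034-95052222 in GRCm38), the strongest activating partner of FOS, had 162 CPM in WT LT-HSC-like cells and 177 CPM in those of the KO (0.12, -0.03 to 0.28). In lymphoid-primed-like cells it had 107 and 97.6 CPM (-0.13, -0.30 to 0.03). Its ratio was past the fold only in megakaryocyte-like cells, with 94.8 CPM in WT and 164 CPM in KO (0.79, 0.55 to 1.04), and its lowest ratio was in mast/basophil-like cells, with 281 and 215 CPM (-0.39, -0.59 to -0.19). In erythroid-primed-like cells Jun had 21.1 CPM in WT and 28.3 CPM in KO (0.43, 0.29 to 0.56).

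Junb, which often opposes JUN at target genes, differed past the fold in 2 classes and in opposite directions. It had 35.8 CPM in WT and 57.2 CPM in KO hepatocyte-like cells (0.68, 0.26 to 1.11) and 91.6 and 58.1 CPM in mast/basophil-like cells (-0.66, -1.04 to -0.28). With female cells only the latter ratio was -1.20, and KO male mast/basophil-like cells (16 cells) had 96.2 CPM of Junb against 96.6 CPM in WT female cells. In LT-HSC-like cells it was at 31.6 and 32.8 CPM, and in erythroid-primed-like cells at 21.8 CPM in both libraries. Jund, the subunit that resting cells also express, was past the fold in 0 of 10 classes. Its ratios ran from -0.42 in mast/basophil-like cells (226 CPM in WT, 169 CPM in KO) to 0.44 in megakaryocyte-like cells (115 and 156 CPM), and in LT-HSC-like cells it stood at 181 and 170 CPM.

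Egr1 and Ier2 were lower in KO in most classes, Egr1 in 6 of 9 with enough UMIs and Ier2 in 10 of 10. Egr1 (ENSMUSG00000038418), an SRF target, had 178 UMIs (26.1 CPM) in WT and 96 UMIs (18.0 CPM) in KO lymphoid-primed-like cells (-0.53, -0.91 to -0.17). Fosb and Egr1 were thus both past the fold in this class, in opposite directions. In LT-HSC-like cells Egr1 had 22.9 CPM in WT and 18.5 CPM in KO (-0.31, -0.77 to 0.14). In mast/basophil-like cells it had 55.9 and 24.8 CPM (-1.17, -1.73 to -0.63), from 86 and 44 UMIs. The KO value there was not the same in both sex classes. Egr1 had 59.1 CPM in WT female, 13.8 CPM in KO female (a KO/WT ratio of -2.10) and 54.1 CPM in KO male mast/basophil-like cells, the last from 18 UMIs in 16 cells. Its level was highest in hepatocyte-like cells, with 76.7 CPM in WT against 90.1 in KO. Neutrophil-primed-like cells had 39 Egr1 UMIs in WT and 15 in KO, below the minimum used for a ratio.

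Ier2, which encodes a small nuclear protein induced by growth factors, was past the fold in 0 classes. The lowest ratio was in macrophage-like cells, with 103 CPM in WT and 74.0 CPM in KO (-0.48, -0.78 to -0.19). Monocyte/dendritic-like cells had 134 and 111 CPM (-0.27, -0.48 to -0.07) and mast/basophil-like cells 170 and 141 CPM (-0.27, -0.53 to -0.02). The remaining 7 intervals held 0. LT-HSC-like cells had 117 and 113 CPM and endothelial-like cells 151 CPM in both libraries.

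Of the genes that limit the response, Dusp1 (ENSMUSG00000024190) had 126 UMIs (23.7 CPM) in WT and 119 UMIs (34.9 CPM) among KO LT-HSC-like cells, a ratio of 0.56 (0.19 to 0.93). Neutrophil-primed-like cells had 11.2 and 18.7 CPM (0.74, 0.29 to 1.21), and monocyte/dendritic-like cells had 21.0 and 32.9 CPM (0.65, 0.21 to 1.09). These were the 3 classes past the fold among 8 with enough UMIs. In lymphoid-primed-like cells Dusp1 had 15.1 CPM in WT and 14.1 CPM in KO (-0.10, -0.55 to 0.34). Endothelial-like cells held the highest level in both libraries, 94.1 and 91.2 CPM, and no other class reached 50 CPM.

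Zfp36 was past the fold only in erythroid-primed-like cells, where its level was low, with 49 UMIs (1.32 CPM) in WT and 70 UMIs (1.95 CPM) in KO (0.57, 0.02 to 1.13), a call kept in 6 of 10 alternatives (lowest 0.29, with clusters in place of gates). In monocyte/dendritic-like cells it had 52.0 and 66.9 CPM (0.36, 0.07 to 0.65), and in LT-HSC-like cells 32.5 and 34.0 CPM (0.06, -0.29 to 0.41). The classes below the minimum included mast/basophil-like cells with 61 UMIs in WT and 34 in KO, and megakaryocyte-like cells with 13 and 67. Atf3 was nearly restricted to 2 classes. It had 31 UMIs (23.5 CPM) in WT and 48 UMIs (28.2 CPM) in KO endothelial-like cells, and 23 (10.4 CPM) and 31 UMIs (13.3 CPM) in macrophage-like cells. In the other 8 gated classes it had at most 7 UMIs in either library. Lymphoid-primed-like cells had 0 Atf3 UMIs in both.

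The members past the fold were set beside all genes with at least 100 UMIs in the same class. In LT-HSC-like cells 2 of 9 members were higher past the fold and 0 lower, against 1.5% and 2.01% of all genes. In lymphoid-primed-like cells 1 of 9 was higher and 1 lower, against 1.37% and 1.82%. Neutrophil-primed-like cells had 1 of 8 higher and 0 lower, against 2.01% and 1.14%. In monocyte/dendritic-like cells 2 of 9 were higher and 0 lower, against 2.22% and 2.3%. The largest number, 3 of 9 higher and 0 lower, was found in erythroid-primed-like cells, against 2.42% and 1.04%, and 3 of 7 higher and 0 lower in megakaryocyte-like cells, against 3.28% and 3.05%. Mast/basophil-like cells were the only class with more members on the lower side, with 0 of 8 higher and 2 lower, against 3.24% and 2.65%. In macrophage-like cells 2 of 9 were higher and 0 lower, against 7.85% and 2.77% of all genes. Hepatocyte-like cells had 2 of 7 higher and 0 lower, against 5.25% and 1.87%, and endothelial-like cells had 1 of 8 higher and 0 lower, against 4.27% and 2.9%. Of the 20 combinations past the fold, 12 were so under each alternative run for them and 8 were not under at least 1. Because the Fosb value in KO cells was used to choose the list, nothing is read from these shares beyond the counts.

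The summed level of the 10 members (mostly Jun, Jund and Ier2) was higher in KO in 8 classes and lower in 2, and the interval left out 0 in 8 of 10. The sum had a log2 ratio of 0.09 (0.01 to 0.16) in LT-HSC-like cells, -0.10 (-0.17 to -0.03) in lymphoid-primed-like cells and 0.06 (-0.02 to 0.14) in neutrophil-primed-like cells. It was 0.24 (0.17 to 0.31) in monocyte/dendritic-like cells, from 895 to 1057 CPM, 0.24 (0.14 to 0.35) in macrophage-like cells, from 646 to 766 CPM, and 0.11 (0.06 to 0.16) in erythroid-primed-like cells. Megakaryocyte-like cells were the only class past the fold, with 469 CPM in WT and 665 CPM in KO (0.50, 0.39 to 0.62), and this call was kept in 6 of 10 alternatives (lowest 0.29, as a mean over cells). Mast/basophil-like cells had the lowest value, with 1053 and 840 CPM (-0.33, -0.43 to -0.22), and passed the fold with female cells only (-0.51). KO male cells had 456 CPM in the megakaryocyte-like class (11 cells) and 1343 CPM in the mast/basophil-like class (16 cells). The median ratio of the members was 0.06 in LT-HSC-like cells and -0.12 in lymphoid-primed-like cells, where the median of all genes was 0.02 in both. In erythroid-primed-like cells the members' median was 0.43, while their sum, to which Jund gave the most UMIs, had 0.11.

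Markers of other cell types and other measures moved with some of these classes, and their part in the results was not tested. In the hepatocyte-like gate, where Fos and Junb were past the fold, the summed megakaryocyte markers had 65.0 CPM in WT and 586 CPM in KO, the neutrophil markers 51.1 and 278 CPM, and 2 of 42 WT and 18 of 80 KO cells were called doublets. Over the 7 alternatives run there, removal of doublet calls included, Fos ran from 0.79 to 1.05 and Junb from 0.56 to 0.74. In the megakaryocyte-like gate the macrophage markers had 13.5 CPM in WT and 52.2 CPM in KO. In the monocyte/dendritic-like gate the summed macrophage markers had 190 CPM in WT and 94.8 CPM in KO, and the summed endothelial markers 43.3 and 4.53 CPM. In the mast/basophil-like gate the class's own markers had 597 CPM in KO against 1308 in WT. Their median over cells was 426.6 CPM in WT and 402.5 CPM in KO. For the megakaryocyte markers in the hepatocyte-like gate this median was 11.3 CPM in WT and 0 in KO, and for the neutrophil markers 12.3 and 0. It was 0 in both libraries for the macrophage and endothelial markers in the monocyte/dendritic-like gate, so these sums did not come from the typical cell. In the lymphoid-primed-like gate the summed LT-HSC markers were at 132 and 88.9 CPM (medians 81.35 and 52.1). In the LT-HSC-like gate the hepatocyte markers were at 79.6 and 151 CPM (medians 71.7 and 142.8). They were higher in KO in every other gate except the endothelial-like one (385 and 262 CPM). Erythroid-primed-like cells, for example, had 47.6 and 89.2 CPM, and lymphoid-primed-like cells 62.0 and 92.9 CPM. A cluster of 104 KO cells and 0 WT cells, with a median of 6986 UMIs, supplied 36 of the 123 KO megakaryocyte-like cells. Without it the summed ratio in that class was 0.57, with 0.90 for Fos, 0.93 for Fosb and 0.90 for Jun.

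Detection per cell was compared after each cell had been thinned to 8000 UMIs, the mean of 20 random draws, with shallower cells left out. Among these were 20 WT and 83 KO LT-HSC-like cells and 9 and 8 lymphoid-primed-like cells. A further 2 and 24 were megakaryocyte-like and 8 and 20 endothelial-like cells. Among lymphoid-primed-like cells a Fosb UMI was found in 11.6% (7.78 to 16.4) in WT and 19.3% (14.6 to 24.7) in KO, and in 22.7% and 30.9% without thinning. In LT-HSC-like cells the share with a Fos UMI was 24.97% (20.3 to 30.1) in WT and 30.3% (24.3 to 36.8) in KO, and 35.2% and 38.3% without thinning. No class is known to lack these genes, and the lowest shares were those of erythroid-primed-like cells, with 5.49% in WT and 6.02% in KO for Fos and 5.01% and 7.80% for Fosb. The share of cells with a Fosb UMI was higher in KO in 10 of 10 classes, and that with a Fos UMI in 9 of 10. In mast/basophil-like cells the Fosb share (19.4% in WT, 28.5% in KO) and the Fosb CPM went in opposite directions, and no order is read from it. The share with Egr1 was 18.2% in WT and 12.7% in KO among lymphoid-primed-like cells and 24.5% and 12.97% among mast/basophil-like cells. Its share was higher in KO in 3 of 10 classes.

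The number of members found in the same cell was also compared. LT-HSC-like cells had a mean of 2.98 of the 10 members in WT and 2.98 in KO, and lymphoid-primed-like cells had 2.81 and 2.76. The mean was 1.20 and 1.23 in erythroid-primed-like cells and 4.62 and 5.01 in endothelial-like cells. Megakaryocyte-like cells had 2.35 in WT (45 cells, 2 left out) and 3.07 in KO (99 cells, 24 left out). Hepatocyte-like cells had 2.94 and 3.64, and macrophage-like cells 3.34 and 3.83. Mast/basophil-like cells had 3.87 and 3.46. The mean was higher in KO in 7 of 10 classes. At least 5 members were found in 15.9% (12.1 to 20.4) of WT and 19.3% (14.3 to 25.1) of the KO LT-HSC-like group, and in 15.5% (11.1 to 20.8) and 14.6% (10.5 to 19.6) of lymphoid-primed-like cells, intervals that overlapped widely. Monocyte/dendritic-like cells reached 38.7% and 43.7%, and erythroid-primed-like cells 0.282% and 0.495%. The share was 9.44% (2.77 to 21.9) in WT and 19.6% (12.3 to 28.8) in KO megakaryocyte-like cells, and 19.7% (8.64 to 35.8) and 33.1% (22.4 to 45.3) in hepatocyte-like cells. Macrophage-like cells had 23.6% and 38.1%, and mast/basophil-like cells 35.5% and 29.2%.

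**Figure D3:**
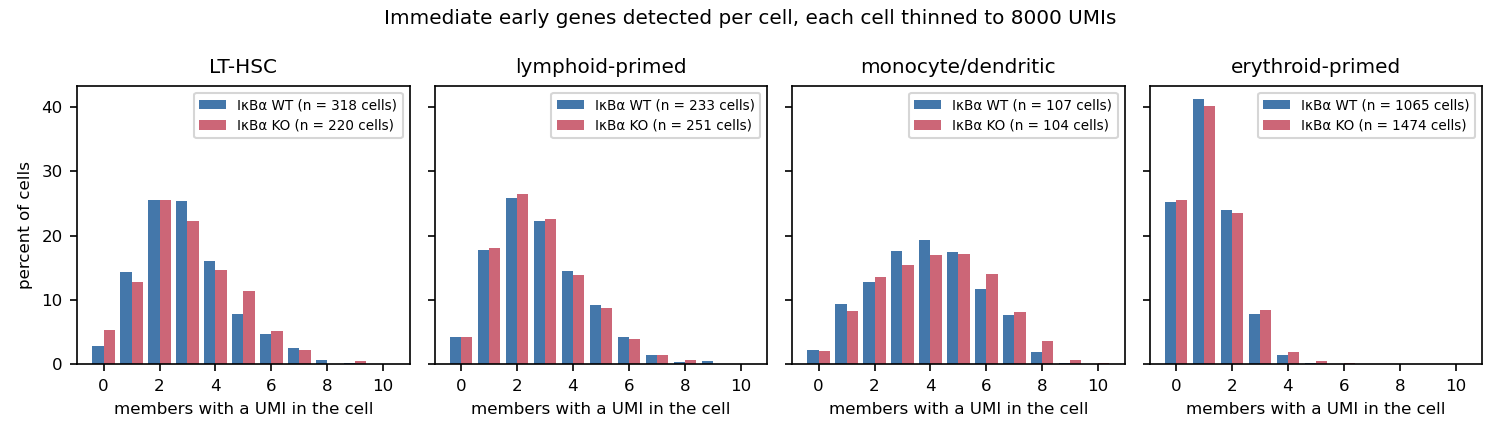
Percentage of cells with 0 to 10 of the members detected after thinning to 8000 UMIs per cell, in 4 gated classes, WT in blue and KO in red. The WT and KO distributions lie nearly on each other in LT-HSC-like (mean 2.98 and 2.98) and lymphoid-primed-like cells (2.81 and 2.76).

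Members were found together in the same cells more than their single shares would give. For each pair the odds of finding the second gene were compared between cells with and without the first. Over 36 pairs of members found in enough LT-HSC-like cells the median log2 odds ratio was 0.61 in WT, with 35 of 36 above 0, and 0.69 in KO, with 33 of 36 above 0. Over pairs of the 20 SRF and MAP kinase genes that act upstream of the response, which served as a comparison list, it was 0.09 and 0.04. In lymphoid-primed-like cells the members' median was 0.68 in WT and 0.65 in KO, and that of the upstream genes 0.10 in both. In the 18 groups of class and library with at least 10 pairs in both lists the members' median was the higher one in 18, and it ran from 0.42 to 1.26 against -0.02 to 0.33. Among the 8 classes with values from both libraries the KO median was above the WT median in 5. Pairs in a list share genes and cells, so the values are a description across cells.

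**Figure D4:**
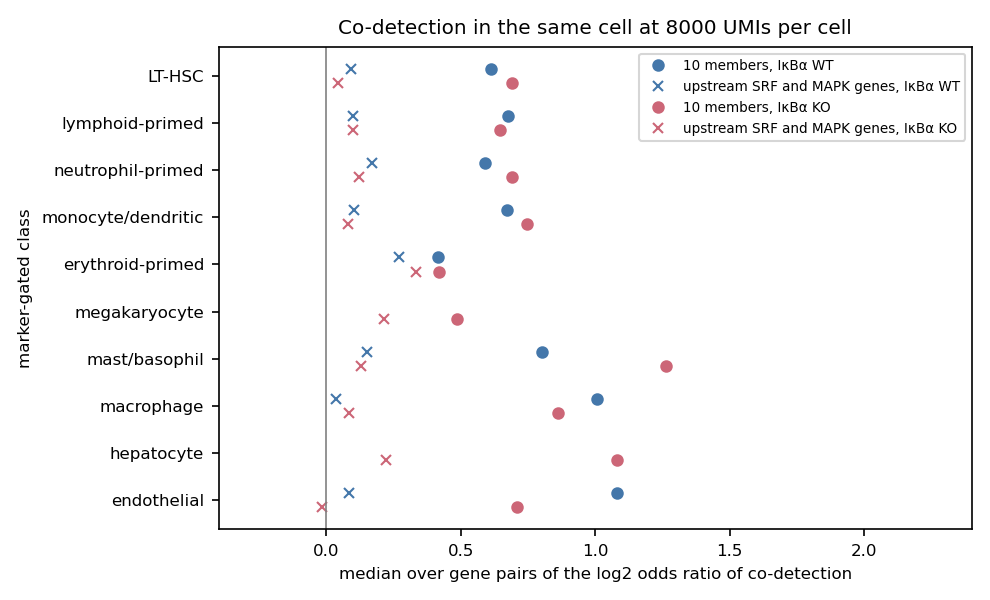
Median log2 odds ratio of co-detection over gene pairs at 8000 UMIs per cell, for the members and for the upstream SRF and MAP kinase genes, in each class and library with at least 10 pairs. Member values lie between 0.42 and 1.26 and upstream values between -0.02 and 0.33, without a common shift between WT and KO.

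The pair of Fos and Fosb was the clearest in LT-HSC-like cells of the WT library. There, Fosb was found in 26.8% of cells with Fos and in 6.71% of cells without it, a log2 odds ratio of 2.33 (1.31 to 3.34), and in KO in 29.2% and 10.96% (1.73, 0.68 to 2.77). In lymphoid-primed-like cells the shares were 23.8% and 6.61% in WT (2.11, 0.93 to 3.29) and 31.6% and 14.4% in KO (1.45, 0.52 to 2.38). Fosb was thus found at a higher share in KO lymphoid-primed-like cells both with and without Fos. Fos and Jun were linked less closely, with 1.11 in WT and 0.95 in KO LT-HSC-like cells, and Jund and Ier2 hardly, with 0.21 and -0.18. The spread of the number of members per cell, divided by the spread that independent detection would give, was 1.65 in WT and 1.69 in KO LT-HSC-like cells, against 1.12 and 1.01 for the upstream genes. In erythroid-primed-like cells it was 1.12 and 1.16, below the 1.27 and 1.32 of the upstream genes.

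The KO library held cells of both sexes, whereas nearly all WT cells were of the female class, so that embryos within the KO pool could be compared in part. Among cells of the female class only, Fosb had a KO/WT ratio of 0.72 (0.63 to 0.82) over all kept cells, Fos 0.35, Dusp1 0.30 and Jun 0.18, and Ier2 -0.14. In lymphoid-primed-like cells of the female class Fosb had 22.8 CPM in WT and 34.4 CPM in KO (0.60, 0.25 to 0.94). KO male cells of that class had 54.3 CPM from 37 UMIs in 34 cells. For Fos the KO male and female cells were nearly equal over all kept cells, at 39.7 and 39.5 CPM, but differed in opposite directions between classes, with male cells higher in 5 and lower in 5 and ratios from -1.33 to 1.68. The 34 KO male lymphoid-primed-like cells had 89.6 CPM of Fos and the 198 KO female cells 54.7 CPM, a male/female ratio of 0.71 (0.28 to 1.13), with WT female cells at 67.8 CPM between them. In LT-HSC-like cells Fos had 53.4 CPM in WT female, 70.2 CPM in KO female and 116 CPM in KO male cells. In monocyte/dendritic-like cells the 13 KO male cells had 519 CPM of Fos against 254 CPM in the 77 KO female cells and 199 CPM in WT female cells. In mast/basophil-like cells the male/female ratio of Fos was 1.68 (1.246 to 2.112). It was below 0 in megakaryocyte-like cells (-1.27, -2.51 to -0.26), macrophage-like cells (-1.13, -1.99 to -0.37) and hepatocyte-like cells (-1.33, -2.45 to -0.37), each with 11 to 16 male cells. Fos had 23.4 CPM in KO male, 56.5 in KO female and 27.5 in WT female megakaryocyte-like cells. In the same order it had 59.9, 131 and 67.7 CPM in macrophage-like and 18.9, 47.5 and 30.3 CPM in hepatocyte-like cells. KO male cells had 8.62 CPM in the erythroid-primed-like and 249 CPM in the endothelial-like class, against 6.72 and 91.5 CPM in WT female cells. Fosb was higher in male cells in 6 classes and lower in 4, with -1.66 (-2.89 to -0.65) in megakaryocyte-like cells. Sex and embryo cannot be told apart.

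**Figure D5:**
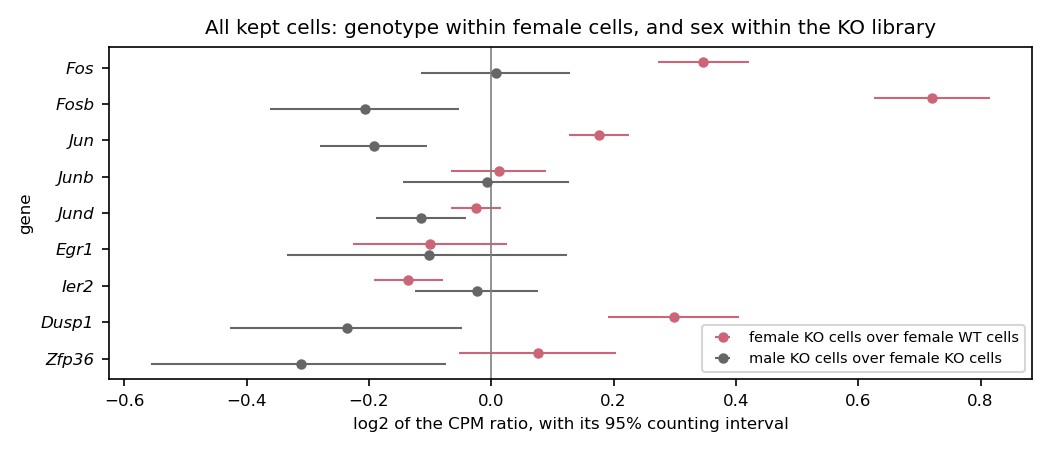
Log2 ratios over all kept cells with 95% counting intervals for the members other than Atf3, comparing KO with WT within the female class and male with female cells within the KO library. Fosb has the largest KO/WT value (0.72), and the male/female values of Fosb (-0.21), Jun (-0.19) and Dusp1 (-0.24) lie below 0.

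Other genes of the response and of the pathway above it were described from lists. Of all genes with enough UMIs, 1.5% were higher and 2.01% lower past the fold in LT-HSC-like cells. In lymphoid-primed-like cells these shares were 1.37% and 1.82%, and nothing is read from the small counts per list. Of 11 other AP-1 subunits, 4 had enough UMIs in LT-HSC-like cells and 0 were past the fold. The highest was Batf, which pairs with JUN in lymphocytes, with 29.3 CPM in WT and 39.0 CPM in KO (0.41). Of 31 other immediate early genes, 17 had enough UMIs there, 1 was higher past the fold and 0 lower. That gene was Klf2, a zinc finger factor of quiescent lymphocytes and endothelium, with 28.4 CPM in WT and 47.2 CPM in KO (0.73, 0.40 to 1.06). In lymphoid-primed-like cells Klf2 stood at 22.4 and 22.5 CPM. Myc had 31.7 and 43.1 CPM in LT-HSC-like cells (0.44), and the lowest on the list were Ier3 (23.9 and 18.2 CPM) and Ppp1r15a (36.8 and 28.1 CPM). In lymphoid-primed-like cells 0 of 18 were higher past the fold and 1 was lower, Cebpd, with 10.4 and 7.13 CPM (-0.55, -1.15 to 0.04).

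Of the 20 upstream SRF and MAP kinase genes, 18 had enough UMIs in LT-HSC-like cells. There 0 were higher past the fold, against 1.5% of all genes, and 1 was lower, against 2.01%. The lower one was Mrtfa, an SRF coactivator, with 16.7 CPM in WT and 9.67 CPM in KO (-0.79, -1.41 to -0.20). The highest was Map2k1, with 20.7 and 24.3 CPM (0.24). In lymphoid-primed-like cells Srf was the 1 of 18 past the fold, on the lower side, against 1.82% of all genes. It had 69 UMIs (10.1 CPM) in WT and 34 UMIs (6.38 CPM) in KO (-0.67, -1.30 to -0.05). The list's median ratio was -0.04 in LT-HSC-like and -0.08 in lymphoid-primed-like cells. Heat shock genes, which respond to the handling of cells as well, had 9 of 13 members with enough UMIs in LT-HSC-like cells and 0 past the fold in either direction. Their median ratio was 0.15 there and 0.12 in lymphoid-primed-like cells. Hspd1 had 654 CPM in WT LT-HSC-like cells and 751 CPM in KO ones (0.20, 0.13 to 0.27), Hsph1 55.8 and 64.8 CPM (0.22), and Hspa8 2025 and 1823 CPM (-0.15, -0.20 to -0.11).

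Across single LT-HSC-like cells, the genes whose log-normalised level went most closely with the summed members were Klf6 (Pearson's r 0.41) and Klf2 (0.37) in the 338 WT cells and Klf2 (0.35) and Klf6 (0.30) in the 303 KO cells. Both are Krüppel-like immediate early factors and both stood at the head of the list in each library, out of 8577 and 7635 genes. In lymphoid-primed-like cells Cd69, an early activation antigen, led in WT (0.43, 242 cells) and Klf2 (0.47) and Klf6 (0.36) in KO (259 cells). The summed members also went with lower depth per cell (r -0.31 in WT and -0.24 in KO LT-HSC-like cells) and with a higher mitochondrial share (0.18 and 0.14), so that the points of these correlations share depth as well as library.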

How the data were processed

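Per the labels and methods, 10x 3′ v3 libraries of sorted fetal liver LSK cells were processed with Cell Ranger 6.0.0 against mm10, separately for each library, and the authors deposited the unnormalised UMI counts of each gene in each cell. The annotation release was not given in the sources used here, and 0 other per-sample columns were found. The filter required at least 1000 genes and no more than 20% mitochondrial UMIs in a cell. Scrublet doublet calls (scanpy 1.11.5; 3.90% of WT and 5.80% of KO cells) were kept in. Each cell took the class with the highest mean marker score above 0.5 if it led by at least 0.2, and cells near these limits numbered 60 of the 338 WT cells and 51 of the 303 KO cells called LT-HSC-like. The scoring rule was settled after the data had been seen, and the members and lists were chosen with earlier results of these data known. These classes are not the study's own. Counts were summed per library and class and given as CPM with exact Poisson intervals, ratios with exact conditional intervals and shares with Clopper-Pearson intervals (scipy 1.17.1). No p-value was computed, since each genotype had 1 library. A fold was called at a log2 ratio of at least 0.5 in size among genes with at least 100 UMIs. Cells were thinned to 8000 UMIs for shares and co-detection, over 20 draws, and an odds ratio used pairs whose genes were each found in, and missing from, at least 10 cells, and added 0.5 to each count. All 10 members were named in the text, and of the other lists the 2 highest and 2 lowest in LT-HSC-like cells (not all are printed), those past the fold in lymphoid-primed-like cells, and leading correlates. Sums, ratios and thinning were tested on simulated data. Alternatives covered the gates, clusters, doublets, sex classes, scaling, UMI minimum and depth.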

Additional observations from a re-analysis of the deposited data

Results flagged for a closer look

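The KO/WT ratio of 4 genes and of the sum went in opposite directions in 2 classes, each with an interval that left out 0. The difference between the classes was not tested, since each class has 1 library per genotype. Jun had a log2 ratio of 0.79 in megakaryocyte-like and -0.39 in mast/basophil-like cells. Junb had 0.68 in hepatocyte-like and -0.66 in mast/basophil-like cells. Jund had 0.44 in megakaryocyte-like and -0.42 in mast/basophil-like cells, and Egr1 had 0.48 and -1.17 in the same classes. The sum of the 10 members had 0.50 in megakaryocyte-like and -0.33 in mast/basophil-like cells. Each of these classes had between 42 and 123 cells per library. In mast/basophil-like cells the sum had 1051 CPM in WT female, 736 CPM in KO female and 1343 CPM in KO male cells. In megakaryocyte-like cells it had 469, 702 and 456 CPM in the same order. Jun had 275, 207 and 291 CPM in mast/basophil-like and 96.1, 176 and 73.0 CPM in megakaryocyte-like cells. Jund had 222, 171 and 216 CPM in the former and 116, 152 and 131 CPM in the latter. The KO male cells numbered 16 and 11.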

How the results depend on the processing

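No paired analysis was possible because the design holds a single library for WT and for KO. Among the alternatives run, 765 of 793 values of single members and 84 of 95 sums stayed within their error, and no called value turned its direction. The 17 combinations higher in KO past the fold became 8 to 20 (8 with clusters in place of gates, against 12 for the same pairs by gates) and the 3 lower ones 5 with female cells only. With clusters in place of gates, the summed ratio was 0.035 in lymphoid-primed-like and 0.17 in monocyte/dendritic-like cells. As a mean over cells it was 0.15 in monocyte/dendritic-like, 0.029 in erythroid-primed-like, 0.29 in megakaryocyte-like, -0.21 in mast/basophil-like, 0.44 in macrophage-like and 0.44 in hepatocyte-like cells. It was 0.29 in hepatocyte-like cells without doublet calls. With female cells only it was 0.15 in neutrophil-primed-like and -0.51 in mast/basophil-like cells. Fosb in lymphoid-primed-like cells ranged from 0.39 (mean over cells) to 0.96 and was past the fold under 9 of 10 alternatives. Unthinned and at 4000 UMIs, Fos was found in 35.2% and 15.9% of WT and 38.3% and 21.3% of KO LT-HSC-like cells, and at least 5 members in 34.0% and 6.13% of WT and 30.4% and 6.93% of KO. Fosb was found in 22.7% and 7.24% of WT and 30.9% and 12.1% of KO lymphoid-primed-like cells, and at least 5 members in 57.4% and 4.48% of WT and 43.6% and 3.52% of KO. With a minimum of 200 UMIs the share of all genes past the fold, higher and lower, was 0.646% and 0.686% in LT-HSC-like, 0.575% and 0.766% in lymphoid-primed-like, 0.958% and 0.982% in monocyte/dendritic-like, 1.68% and 1.63% in megakaryocyte-like, 1.56% and 1.60% in mast/basophil-like, 1.80% and 1.20% in hepatocyte-like and 2.20% and 1.39% in endothelial-like cells. It was 0.940% higher in neutrophil-primed-like, 1.53% higher in erythroid-primed-like and 1.79% lower in macrophage-like cells. The cause of these shifts was not tested. The megakaryocyte-like gate without the cluster found in KO only was chosen after seeing the data. Too few cells remained for clusters in megakaryocyte-, mast/basophil- and hepatocyte-like cells, for a stricter gate in mast/basophil- and hepatocyte-like cells, and for female cells only in hepatocyte-like cells. Depth limits Egr1, Zfp36, Dusp1 and Atf3 in the small classes.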

Other observations

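Between cluster 8 and the erythroid clusters 7 and 13, Dusp1 and Jun went in opposite directions. Between clusters 7 and 13 both genes were higher in 13, in WT and in KO. The clusters were formed from variable genes of both libraries, and the remaining erythroid clusters are not given here. In cluster 8, led by haemoglobin genes, Dusp1 had 46.7 CPM in 99 WT cells and 27.4 CPM in 155 KO cells, and Jun had 1.10 CPM in WT and 2.79 CPM in KO, from 2 and 6 UMIs. In cluster 7 Dusp1 had 5.11 CPM in 276 WT cells and 4.81 CPM in 391 KO cells, and Jun had 19.6 and 27.8 CPM. In cluster 13 Dusp1 had 6.94 CPM in WT against 7.91 in KO, and Jun at 32.4 and 39.6 CPM. Both libraries gave the same order of these 3 clusters for Jun, and for Dusp1 they placed cluster 8 highest and cluster 7 lowest. The clusters were singled out after their values were seen.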
